A study of Mus musculus with 3 samples.

Results

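The Serpin genes are the family of protease inhibitor genes whose platform symbol starts with Serpin, and they were read from probe sets listed for 1 gene only. They comprised 40 of the 18194 genes on the arrays, covered by 56 of 34958 single-gene probe sets. Total RNA of plasmacytoid dendritic cells (pDC), CD8+ conventional dendritic cells (CD8+ cDC) and CD11b+ conventional dendritic cells (CD11b+ cDC) had been hybridised to 1 Affymetrix mouse array each. All 3 subsets were sorted from spleens of untreated female C57BL/6 mice of 6 to 8 weeks after beads had removed T and B cells, and each RNA was a pool over 5 to 8 animals. With 1 array per cell type there is no spread between samples, so differences are described by size, no p-value is given, and the animals, the sort and the array vary together with the cell type. Fewer cells of a type and less RNA per cell cannot be told apart in such pools.

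Serpins share a fold in which an exposed reactive centre loop acts as bait for a protease. Cleavage of the loop traps the protease in a covalent complex, which inactivates both proteins. Members are grouped into clades named by letter. Clade A holds antitrypsin and many secreted liver proteins, and clade B holds proteins that stay mostly inside cells and guard them against proteases released there. Some members, such as the collagen chaperone Serpinh1, have lost inhibition. In dendritic cells the family is best known for Serpinb9, an inhibitor of granzyme B that is held to shield antigen-presenting cells from cytotoxic lymphocytes.

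Signals are intensities as deposited, on a linear scale with arbitrary units, and they are compared between arrays within a gene, not between genes. The background level of 111 was the 95th percentile of 87 probe sets of taste, trace amine, vomeronasal and olfactory receptor genes, and lower signals were set to it before a fold was taken. A gene was called higher or lower where its signals were 2-fold or more apart and the larger one lay above that level, and a fold against an array at background is written as at least that size. Where a gene had another probe set above background, the log2 differences of both probe sets differed with a standard deviation of 0.91 for pDC over CD8+ cDC, 0.87 for pDC over CD11b+ cDC and 0.75 for CD8+ cDC over CD11b+ cDC (4966 genes). This spread is between probe sets of the same gene on the same arrays, not between animals. Scaling the arrays on spike-in controls moved the median log2 difference of all genes to 0.65, -0.30 and -0.95 in these pairs, so folds are relative to the bulk of genes. The fixed pDC markers were called higher on the pDC array than on both cDC arrays for 6 of 6. All 5 measured CD8+ cDC markers were called lower on the pDC array than on the CD8+ cDC array, and 4 of the 5 were called higher on the CD8+ cDC array than on the CD11b+ cDC array, the other being Batf3. The 4 measured CD11b+ cDC markers were all called lower on the CD8+ cDC array than on the CD11b+ cDC array. On the pDC array 3 of these 4 were called lower than on the CD11b+ cDC array, and Cd4 was called higher. Cd3e, Cd3d and Cd3g of T cells, Cd79a and Pax5 of B cells, Ncr1 of natural killer cells and Col1a1 and Col3a1 of fibroblasts lay at background on all 3 arrays. Of the remaining markers of these lymphocytes, the B cell gene Ms4a1 gave 223.3 in pDC, 19147 in CD8+ cDC and 11046.5 in CD11b+ cDC, and Cd5 gave 343.5, 432.5 and 2832. The natural killer marker Gzma gave 337.9, 336.4 and 695.3, and Klra8 gave 107.3, 114.2 and 112.1, near the background level.

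Most of the family was not measured above background in splenic dendritic cells. Of the 40 genes, 15 exceeded the level on at least 1 array, a share of 37.5%, against 60.5% of all genes. By array they were 10 in pDC, 13 in CD8+ cDC and 13 in CD11b+ cDC. These are 25%, 32.5% and 32.5% of the family, against 56.8%, 57.2% and 57.2% of all genes. On all 3 arrays 9 genes exceeded the level, for which the share of all genes was not computed. Of 14 clade A genes, 1 was above background, and the 13 at background were Serpina10, Serpina11, Serpina1b, Serpina1c, Serpina1f, Serpina3a, Serpina3i, Serpina3n, Serpina4-ps1, Serpina5, Serpina6, Serpina7 and Serpina9. Of 18 clade B genes, 10 were above background, and the 8 at background were Serpinb5, Serpinb11, Serpinb12, Serpinb6c, Serpinb9b, Serpinb9c, Serpinb9d and Serpinb9g. In the smaller clades 4 of 8 genes were above background, and the 4 at background were Serpind1, Serpinf2, Serpini2 and Serping1, which encodes the inhibitor of the first complement component. The 36 Serpin probe sets at or below the level on all 3 arrays gave signals from 34.6 to 104, and their brightest array exceeded their dimmest by at most 1.08-fold. Members of clade E were not analysed here.

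**Figure D1:**
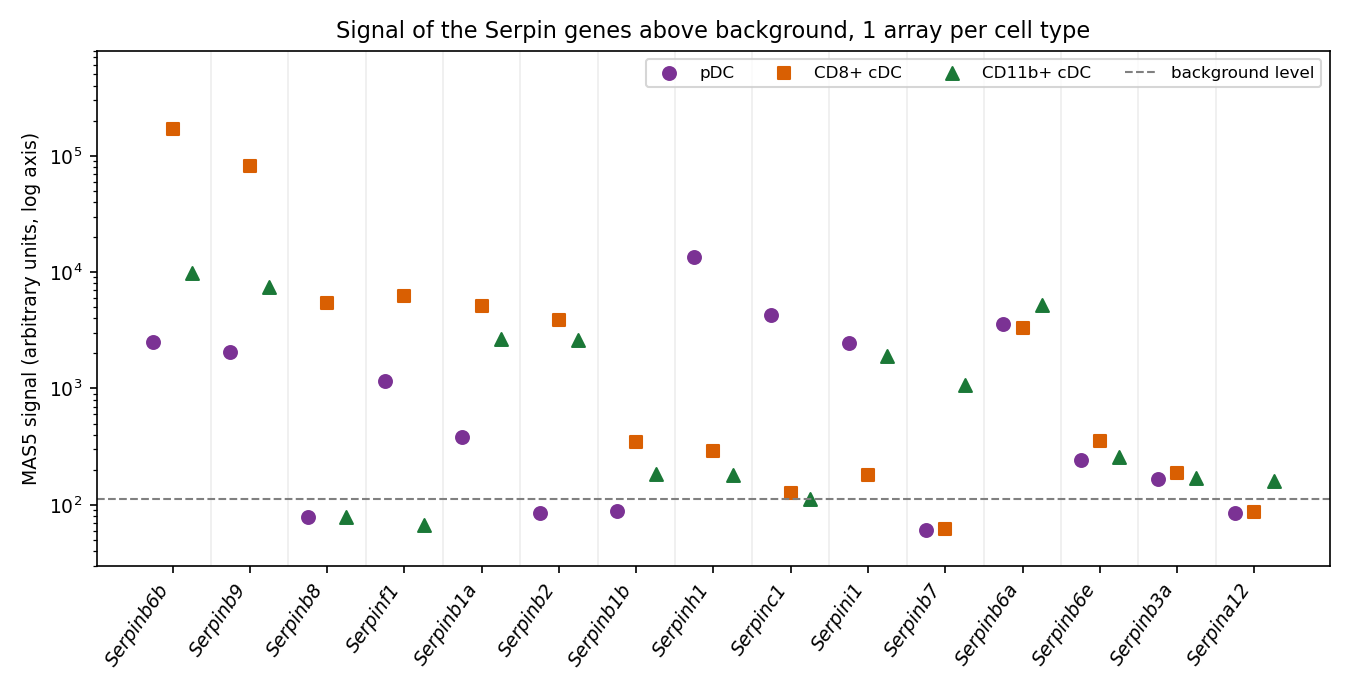
Signal (log axis, arbitrary units) of the 15 Serpin genes above background, with pDC, CD8+ cDC and CD11b+ cDC side by side for each gene (1 array each, so no error bars) and the background level of 111 as a dashed line; signals are to be read across arrays within a gene. Serpinb6b, Serpinb9 and Serpinb8 stand highest in CD8+ cDC, Serpinh1 and Serpinc1 in pDC and Serpinb7 in CD11b+ cDC.

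The genes above background differed widely between the subsets. In 11 of the 15 at least 1 pair of cell types was 2-fold or more apart. The share of all genes that differ in at least 1 pair was not computed, and shares are given by pair below. Between pDC and CD8+ cDC 3 of 13 measured Serpin genes were higher in pDC, where 16.0% of all genes were, and 7 were lower, where 14.8% of all genes were. In the comparison of pDC with CD11b+ cDC 3 of 14 were higher, against 15.0% of all genes, and 5 were lower, against 14.3%. CD8+ cDC had 4 of 15 higher than CD11b+ cDC and 2 lower, against 9.84% and 10.3% of all genes. A member that is measured only because 1 array is bright must differ between arrays, and these counts are described beside the background without a test. Calls in either direction thus covered 10 of 13, 8 of 14 and 6 of 15 Serpin genes, and 30.8%, 29.3% and 20.1% of all genes. Differences of 10-fold or more were found for 8 of 13, 4 of 14 and 5 of 15 Serpin genes in these 3 pairs, and for 6.86%, 6.60% and 3.23% of all genes.

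Median log2 differences of the measured Serpin genes were -1.64 for pDC over CD8+ cDC, -0.53 for pDC over CD11b+ cDC and 0.57 for CD8+ cDC over CD11b+ cDC. Those of all genes were 0.00, 0.01 and 0.01. Their median sizes without sign were 3.76, 1.90 and 0.91 for Serpin genes and 0.54, 0.52 and 0.39 for all genes. With the arrays scaled on spike-in controls the Serpin medians were -0.65, -0.62 and -0.32, so the sign of the last one turned. The medians of all genes moved too, to 0.65, -0.30 and -0.95, and in the last pair the Serpin median stayed above that of all genes. Of the 15 genes, 3 had their highest signal in pDC, 9 in CD8+ cDC and 3 in CD11b+ cDC. How all genes divide by their brightest array was not computed, so these counts have no background beside them. With the spike-in scaling these counts were 2, 4 and 9, since Serpinb1a, Serpinb1b, Serpinb2, Serpinb3a, Serpinb6e and Serpini1 were then brightest in CD11b+ cDC, and Serpinb6b, Serpinb8, Serpinb9 and Serpinf1 in CD8+ cDC. Some were then near a tie with CD11b+ cDC: Serpini1 in pDC (log2 difference -0.01), and Serpinb1a (-0.05) and Serpinb1b (-0.08) in CD8+ cDC. A lead of at least 4-fold over both other arrays was held by 7 of the 15 genes, against 8.71% of all genes. It was held by Serpinc1 and Serpinh1 in pDC, where 4.27% of all genes had one. Serpinb6b, Serpinb8, Serpinb9 and Serpinf1 held one in CD8+ cDC, against 2.42% of all genes, and Serpinb7 held one in CD11b+ cDC, against 2.02%. Serpinf1 lost its lead with the spike-in scaling, where it was -1.77 on the log2 scale in pDC over CD8+ cDC, and with probe sets averaged (-1.21).

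**Figure D2:**
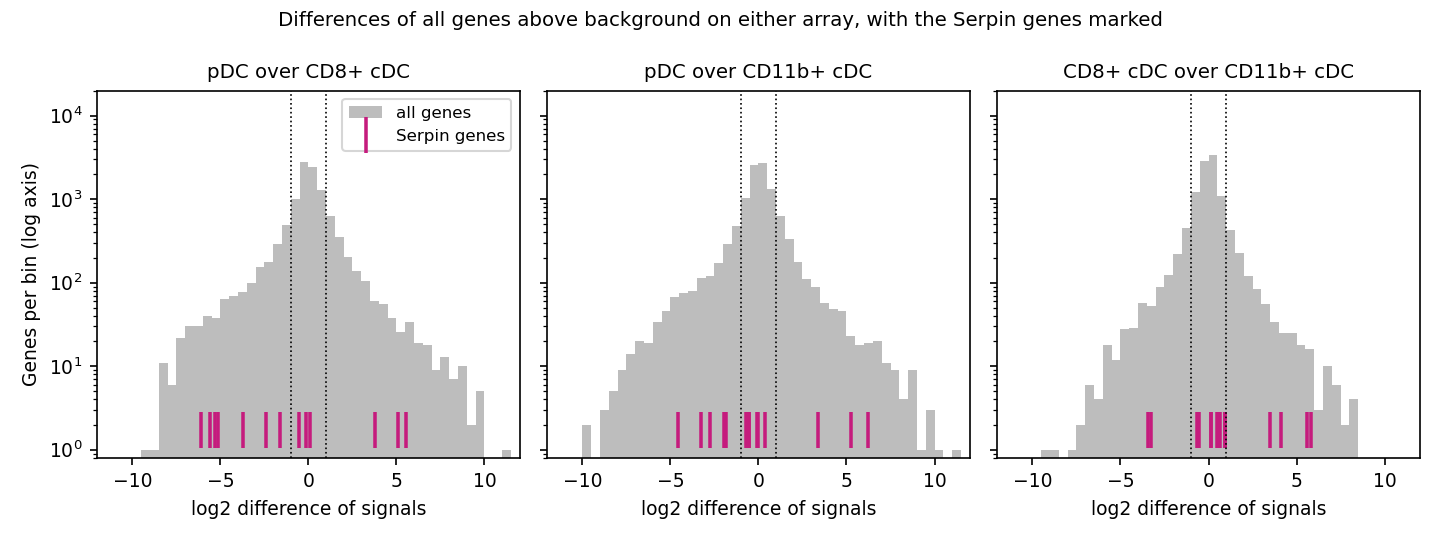
Number of genes (log axis) by log2 difference of signals for the 3 pairs of cell types, over all genes above background on either array (grey bars, bins of 0.5), with each measured Serpin gene as an upright mark and 2-fold as dotted lines. In pDC over CD8+ cDC 10 of the 13 marks lie beyond 2-fold, 7 of them on the CD8+ cDC side.

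Serpinb6b and Serpinb9 were both highest in CD8+ cDC, by more than 10-fold over CD11b+ cDC. Serpinb9 is the granzyme B inhibitor of the family, and Serpinb6b is a mouse relative of Serpinb6a that has been described as an inhibitor of granzyme A. Serpinb6b gave a signal of 2509 in pDC, 171212 in CD8+ cDC and 9807 in CD11b+ cDC. It was 68.3-fold lower in pDC than in CD8+ cDC and 3.91-fold lower in pDC than in CD11b+ cDC. CD8+ cDC exceeded CD11b+ cDC by a factor of 17.5. In pDC over CD8+ cDC this was the 97th most negative difference of 10823 genes.

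Serpinb9 gave 2076 in pDC, 81922 in CD8+ cDC and 7405 in CD11b+ cDC at its brighter probe set. The dimmer probe set gave 398.9, 34013 and 1827 in the same order of cell types. All 3 arrays stood in the same order at both probe sets. Between pDC and CD8+ cDC Serpinb9 was lower in pDC by a factor of 39.5 at the brighter probe set and 85.3 at the dimmer one. Against CD11b+ cDC, pDC was lower by a factor of 3.57 or 4.58, and CD8+ cDC was higher by a factor of 11.1 or 18.6. The CD8+ cDC signals of both genes were above 65535, the largest value a scanner of this kind reads before scaling, and so were 1072 of 45101 probe sets on that array.

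Serpinb8, an intracellular inhibitor of the proprotein convertase furin, was above background in CD8+ cDC only. It gave 79.3 in pDC, 5399.7 in CD8+ cDC and 79.0 in CD11b+ cDC, and the other probe set gave 77.0, 1851 and 77.2. Its signal was thus at least 48.6-fold lower in pDC than in CD8+ cDC, and CD8+ cDC stood above CD11b+ cDC by at least 48.6-fold too, or at least 16.6-fold by the dimmer probe set. Serpinb8 ranked 35th of 10709 genes in CD8+ cDC over CD11b+ cDC. With background at the 99th percentile of the receptor probe sets, a level of 412, the log2 difference between CD8+ cDC and CD11b+ cDC was 3.71 in place of 5.60.

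Serpinb1a and Serpinb2 were higher in both conventional subsets than in pDC. Serpinb1a inhibits neutrophil elastase, cathepsin G and proteinase 3. It gave 386.5 in pDC, 5094 in CD8+ cDC and 2642 in CD11b+ cDC, which was 13.2-fold and 6.83-fold lower in pDC. The second probe set, which by its name may bind other transcripts, gave 172.4, 630.5 and 375.3 and folds of 3.66 and 2.18 in the same direction. Between the conventional subsets Serpinb1a was 1.93-fold higher in CD8+ cDC, just below the 2-fold line, and Serpinb1b, its close relative, 1.88-fold higher. With the spike-in scaling both were near 0 in this pair (log2 differences of -0.05 and -0.08).

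Serpinb2, also known as plasminogen activator inhibitor type 2, gave 85.5 in pDC, 3915 in CD8+ cDC and 2633 in CD11b+ cDC. It was at least 35.2-fold lower in pDC than in CD8+ cDC and at least 23.7-fold lower than in CD11b+ cDC, while CD8+ cDC exceeded CD11b+ cDC by a factor of 1.49. With a background of 412 the log2 differences of pDC were -3.25 and -2.68, and with the spike-in scaling Serpinb2 was lower in CD8+ cDC than in CD11b+ cDC (-0.42). Serpinb1b gave 89.2 in pDC, 347.0 in CD8+ cDC and 184.6 in CD11b+ cDC. Its difference between pDC and CD8+ cDC, at least 3.12-fold lower in pDC, fell below 2-fold with the arrays scaled on spike-in controls, and its signals all lay below a background of 412. Neutrophils express Serpinb1a and macrophages Serpinb2, and markers of these cells ran as follows. The 5 measured neutrophil markers summed to 1277 in pDC, 794 in CD8+ cDC and 7604 in CD11b+ cDC, with 5, 4 and 5 of them above background. S100a8 made the largest part of the CD11b+ cDC sum (489.8, 241.6 and 4393.4). S100a9, Mpo and Camp were highest in CD11b+ cDC too, and Elane was not 2-fold apart in any pair (122.1, 124.8 and 133.2). The 4 measured macrophage and monocyte markers were above background on all 3 arrays and summed to 14676, 20645 and 143135. The CD11b+ cDC sum rested mostly on Adgre1 (2640.6, 3196.4 and 70515.9) and Csf1r (7665.2, 11777.6 and 64905.6). Spic was highest in CD8+ cDC (515.4, 1974.7 and 1542.3), and Cd5l was not 2-fold apart in any pair (3855.1, 3696 and 6171.4). The part of neutrophils and macrophages in the signals of Serpinb1a and Serpinb2 was not tested.

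Serpinb7, also called megsin and known from kidney mesangium and skin, was above background in CD11b+ cDC only. It gave 60.7 in pDC, 62.1 in CD8+ cDC and 1069.9 in CD11b+ cDC. It was at least 9.62-fold lower in pDC and in CD8+ cDC than in CD11b+ cDC, a log2 difference of -3.27 that became -1.38 with a background of 412, where the 4-fold lead was lost. The sums of neutrophil and macrophage markers were highest on the same array, though the macrophage marker Spic was highest in CD8+ cDC. The sum of the 3 measured platelet markers was highest there too (609 in pDC, 1022 in CD8+ cDC and 3623 in CD11b+ cDC). It rested mostly on Pf4 (218.5, 519.5 and 1987.6) and Ppbp (186.4, 222.4 and 1348.2) in CD11b+ cDC. Itga2b was not 2-fold apart in any pair (204.3, 279.9 and 286.8). The part of these cells in the Serpinb7 signal was not tested.

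The other clade B genes differed little. Serpinb6a, an inhibitor of cathepsin G that is found in many tissues, gave 3557 in pDC, 3304 in CD8+ cDC and 5192 in CD11b+ cDC, a widest contrast of 1.57-fold. With the arrays scaled on spike-in controls it was called lower in CD8+ cDC than in CD11b+ cDC. Serpinb6e (241.6, 356.6 and 256.0) and Serpinb3a (168.2, 188.9 and 171.1) stayed within 1.48-fold and 1.12-fold across pDC, CD8+ cDC and CD11b+ cDC. Many clade B genes are near copies of each other, and probe sets whose names end in x_at, s_at or a_at may bind more than 1 transcript, which applies to those of Serpinb6a, Serpinb6e and Serpinb3a.

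**Figure D3:**
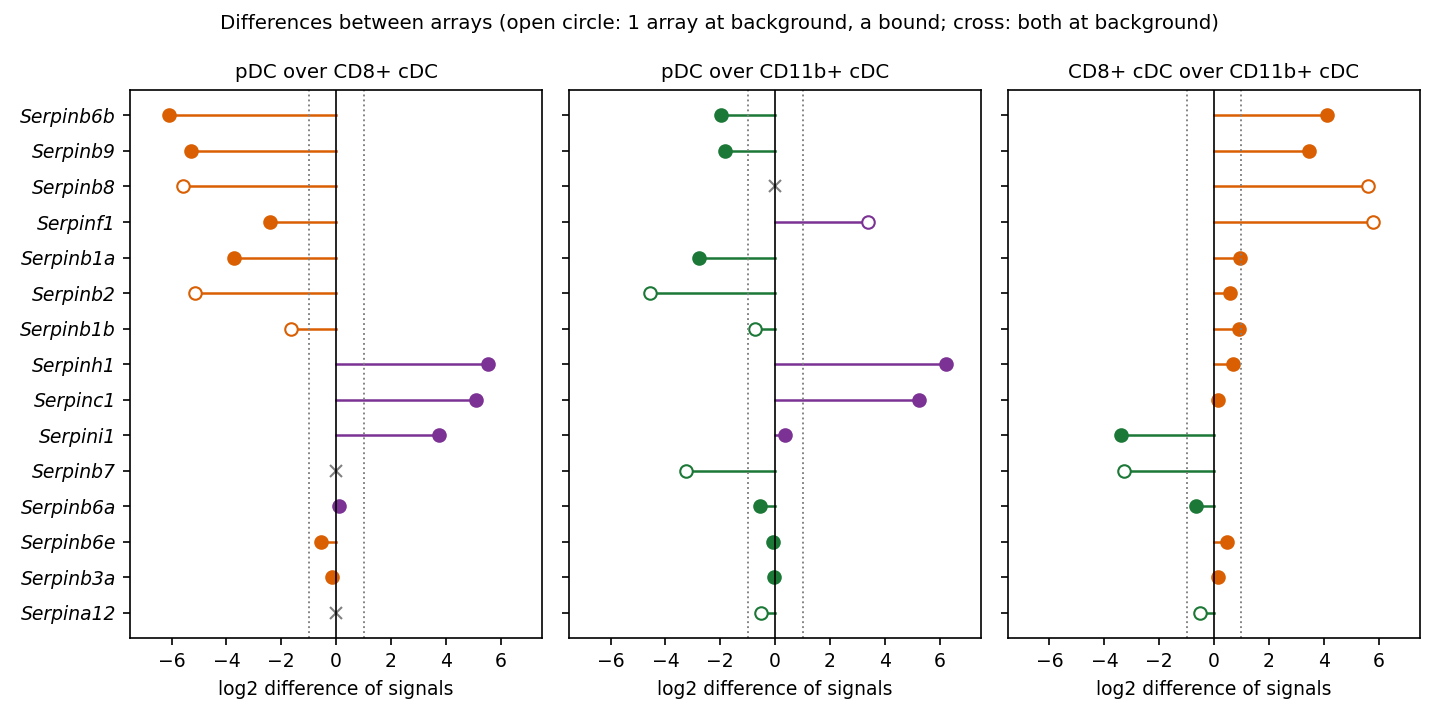
Log2 difference of signals (horizontal axis) for the 15 Serpin genes in the 3 pairs of cell types, coloured by the brighter cell type (purple pDC, orange CD8+ cDC, green CD11b+ cDC), with 2-fold as dotted lines, open circles for bounds and crosses where both arrays lay at background. Serpinb6b, Serpinb9 and Serpinb8 lie on the CD8+ cDC side wherever that array is compared, and Serpinh1 and Serpinc1 on the pDC side wherever pDC is compared.

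Clade B genes lie in a cluster on chromosome 13 and another on chromosome 1, as ordered in the RefSeq annotation of GRCm38.p6. On chromosome 13 that annotation has 16 protein-coding Serpin genes, of which 11 were measured and 6 were above background. All of these 6 except Serpinb6a were brightest in CD8+ cDC as deposited, and with the spike-in scaling only Serpinb6b and Serpinb9 were. The share of all genes brightest on that array was not computed. Serpinb6b and Serpinb9 are direct neighbours there, and Serpinb9b, next in order after Serpinb9, lay at background on all 3 arrays (59.8 in pDC, 62.4 in CD8+ cDC and 60.6 in CD11b+ cDC). Outside the cluster, Wrnip1 beside Serpinb1a gave 15799 in pDC, 13685 in CD8+ cDC and 12023 in CD11b+ cDC, and Nqo2 beside Serpinb6a gave 1420.4, 2109 and 1944.5. Neither flanking gene reached 2-fold in any pair.

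On chromosome 1 the annotation has 12 Serpin genes in the cluster, of which 7 were measured and 4 were above background. Serpinb7, Serpinb2 and Serpinb8 stand at 1 end of it in this order, with only Serpinb10, not analysed here, among them. The CD11b+ cDC array was bright for the first, both conventional arrays for the second and the CD8+ cDC array for the third, and pDC lay at background for all 3. Vps4b, at the other end, gave 164690 in pDC, 125733 in CD8+ cDC and 132584 in CD11b+ cDC, while Cdh7, beside Serpinb8, lay at background throughout. The clade A cluster on chromosome 12 has 23 genes, of which 12 were measured and 1, Serpina12, was above background.

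**Figure D4:**
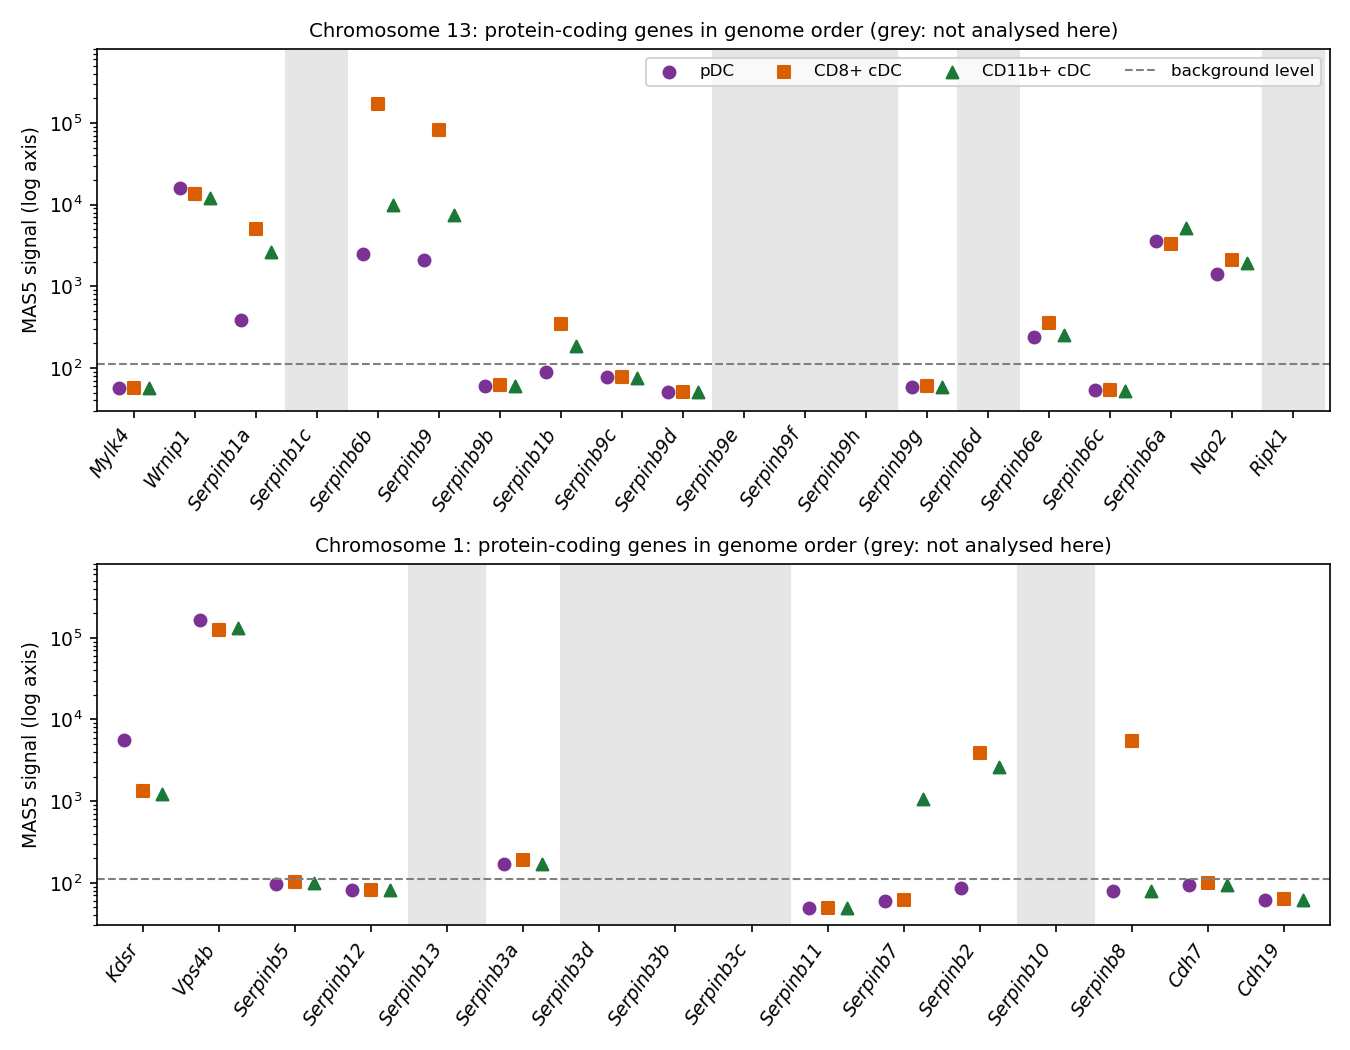
Signal (log axis) on the 3 arrays for protein-coding genes in genome order across the clade B clusters of chromosome 13 (top) and chromosome 1 (bottom), with pairs of flanking genes on either side, genes not analysed here in grey and the background level of 111 as a dashed line. Neighbours Serpinb6b and Serpinb9 stand out in CD8+ cDC on chromosome 13, while Serpinb7, Serpinb2 and Serpinb8 each show another pattern on chromosome 1.

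Promoter sequences from RefSeq (GRCm38.p6, 250 bases before to 50 bases after the annotated start) were found for 34 of the 40 genes and for 14 of the 15 above background. Shown here, 5′ to 3′ on the strand of the gene, are those of 5 clade B genes with large contrasts, since Serpinb9 and Serpinb6b move together across the arrays and Serpinb8, Serpinb2 and Serpinb7 are neighbours that do not. They are Serpinb9 (chr13:33004291-33004590, plus strand), Serpinb6b (chr13:32965011-32965310, plus), Serpinb8 (chr1:107589756-107590055, plus), the upstream of 2 windows of Serpinb2 (chr1:107511173-107511472, plus) and Serpinb7 (chr1:107422439-107422738, plus). Capitals mark matches, on either strand, to the interferon-stimulated response element (GAAA, any 2 bases, GAAA), the Ets-IRF composite (GGAA, any 2 bases, GAAA), the AP-1 site TGANTCA, the heat shock element core GAANNTTC and the TATA box TATAAA.
Serpinb9: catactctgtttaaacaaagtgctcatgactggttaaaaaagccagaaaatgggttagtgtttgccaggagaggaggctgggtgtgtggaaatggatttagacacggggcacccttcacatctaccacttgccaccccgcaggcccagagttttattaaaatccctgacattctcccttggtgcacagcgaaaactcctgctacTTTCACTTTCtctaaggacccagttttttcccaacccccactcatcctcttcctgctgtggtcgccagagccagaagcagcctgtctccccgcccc
Serpinb6b: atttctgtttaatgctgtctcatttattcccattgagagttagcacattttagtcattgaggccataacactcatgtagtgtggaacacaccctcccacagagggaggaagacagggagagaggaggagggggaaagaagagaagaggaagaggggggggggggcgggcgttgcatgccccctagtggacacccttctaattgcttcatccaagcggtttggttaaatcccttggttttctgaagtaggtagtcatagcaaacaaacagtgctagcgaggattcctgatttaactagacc
Serpinb8: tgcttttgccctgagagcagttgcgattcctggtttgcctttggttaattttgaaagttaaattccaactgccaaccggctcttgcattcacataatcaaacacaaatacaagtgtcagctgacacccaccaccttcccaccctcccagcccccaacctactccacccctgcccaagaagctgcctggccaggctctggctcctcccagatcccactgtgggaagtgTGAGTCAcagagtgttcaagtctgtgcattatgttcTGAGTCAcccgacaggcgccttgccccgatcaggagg
Serpinb2: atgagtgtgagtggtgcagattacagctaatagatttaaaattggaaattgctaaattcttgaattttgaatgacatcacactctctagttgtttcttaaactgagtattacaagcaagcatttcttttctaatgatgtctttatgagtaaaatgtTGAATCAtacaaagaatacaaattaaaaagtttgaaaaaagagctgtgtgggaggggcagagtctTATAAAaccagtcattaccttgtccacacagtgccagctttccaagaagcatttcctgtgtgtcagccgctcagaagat
Serpinb7: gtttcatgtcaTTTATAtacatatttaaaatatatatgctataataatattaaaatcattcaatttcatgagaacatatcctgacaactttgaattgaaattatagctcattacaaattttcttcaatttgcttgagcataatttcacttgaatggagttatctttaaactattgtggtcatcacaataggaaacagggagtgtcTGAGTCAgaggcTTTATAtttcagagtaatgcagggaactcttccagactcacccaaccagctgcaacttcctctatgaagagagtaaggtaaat

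The Serpinb9 window has 1 match to the interferon-stimulated response element, TTTCACTTTC on the gene's strand, which begins 46 bases before the annotated start. Of 32851 promoter windows in the table, 3.44% hold such a match, and 1 of the 2 Serpinb6a windows does. Serpinb6b, its neighbour with a like pattern across the arrays, has no match to any of the motifs in capitals. The AP-1 letters occur in the windows of these 3 neighbours on chromosome 1: Serpinb8 has 2 matches (TGAGTCA), and Serpinb2 (TGAATCA) and Serpinb7 (TGAGTCA) have 1 each in the windows shown, against 7.81% of all windows with a match. Of the other genes at background in pDC and above it elsewhere, Serpinb1b and Serpina12 have 0 matches to the AP-1 letters. The Ets-IRF composite was found in 2.72% of all windows, the heat shock core in 7.86% and the TATA box in 13.6%. The E-box CANNTG was searched too and is not capitalised, as 72.3% of windows hold it. Matches of the response element and the composite may overlap each other. A match is a description of letters in a window and no evidence that a factor binds there.

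In pDC the leading members came from other clades. Serpinh1, also called Hsp47, is an endoplasmic reticulum chaperone that binds procollagen and inhibits no protease. It gave 13389 in pDC, 287.7 in CD8+ cDC and 180.0 in CD11b+ cDC, and the second probe set gave 9345, 120.1 and 145.4. Serpinh1 was 46.5-fold higher in pDC than in CD8+ cDC and 74.4-fold higher than in CD11b+ cDC, or 77.8-fold and 64.3-fold by the second probe set. With a background of 412 both log2 differences were 5.02, in place of 5.54 and 6.22. It ranked 70th of 10793 genes in pDC over CD11b+ cDC. Both of its probe sets have names that allow binding to other transcripts.

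Of the 16 measured collagen and collagen folding genes, 9 were above background on any array. In pDC over CD8+ cDC 1 was higher and 0 lower (median log2 difference 0.19), in pDC over CD11b+ cDC 2 were higher and 0 lower (0.41), and in CD8+ cDC over CD11b+ cDC 0 passed 2-fold either way (0.38). Of all genes 30.8%, 29.3% and 20.1% passed it in either direction. The 2 higher ones were Plod2, a collagen lysyl hydroxylase (662.7 in pDC, 57.6 in CD8+ cDC and 57.0 in CD11b+ cDC), and P4ha1, a prolyl hydroxylase subunit (5696, 3237 and 1767). Col1a1, Col1a2 and Col3a1, fibrillar collagens that Serpinh1 is best known to bind, lay at background on all 3 arrays, as did Col4a2 and Col6a1. Col4a1 (279.4 in pDC, 282.1 in CD8+ cDC and 431.3 in CD11b+ cDC) and Col5a1 (160.9, 170.9 and 169.9) were above background on all 3. Neither was 2-fold apart in any pair. Of the 5 stromal markers 3 were above background on any array. Among them Cdh5, an endothelial cadherin gene, gave 11542 in pDC, 75.0 in CD8+ cDC and 74.0 in CD11b+ cDC. Pecam1 gave 864.3, 351.5 and 822.8, and Pdgfrb gave 111, 111.6 and 110.5, near the background level. The list summed to 12677, 685.5 and 1159, and the pDC sum rested mostly on Cdh5. The part of stromal RNA in the Serpinh1 signal was not tested.

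Serpinc1 encodes antithrombin, the plasma inhibitor of thrombin and factor Xa that is made mainly in the liver. It gave 4274 in pDC, 125.5 in CD8+ cDC and 113.3 in CD11b+ cDC, so both conventional arrays lay close to the background level. It was 34.1-fold higher in pDC than in CD8+ cDC and 37.7-fold higher than in CD11b+ cDC, from a single probe set. With a background of 412 both log2 differences were 3.38, in place of 5.09 and 5.24. Serpini1, or neuroserpin, inhibits tissue plasminogen activator and is known from neurons. It gave 2441 in pDC, 180.3 in CD8+ cDC and 1915 in CD11b+ cDC at the probe set used, 3332, 151.6 and 907.6 at another, and lay at background at the third. CD8+ cDC was the low array at both measured probe sets, with pDC 13.5-fold or 22.0-fold higher than CD8+ cDC, and CD8+ cDC lower than CD11b+ cDC by a factor of 10.6 or 5.99. Whether pDC exceeded CD11b+ cDC depended on the probe set, at 1.27-fold or 3.67-fold. At the probe set used, a background of 412 gave log2 differences of 2.57 for pDC over CD8+ cDC and -2.22 for CD8+ cDC over CD11b+ cDC, in place of 3.76 and -3.41.

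Serpinf1 encodes pigment epithelium-derived factor, a secreted protein that blocks vessel growth and inhibits no protease. It gave 1168 in pDC, 6196 in CD8+ cDC and 67.1 in CD11b+ cDC. This was 5.30-fold lower in pDC than in CD8+ cDC, at least 10.5-fold higher in pDC than in CD11b+ cDC, and at least 55.7-fold higher in CD8+ cDC than in CD11b+ cDC. It stood 28th of 10709 genes in CD8+ cDC over CD11b+ cDC, the highest rank of any Serpin gene in that pair. A second probe set read background on all 3 arrays (51.2, 51.3 and 51.2), and with both averaged the log2 differences of these pairs were -1.21, 1.14 and 2.34 in place of -2.41, 3.39 and 5.80. With a background of 412 those against CD11b+ cDC were 1.50 and 3.91. Serpina12, or vaspin, was the 1 clade A gene above background, at 159.2 in CD11b+ cDC, against 85.3 in pDC and 86.0 in CD8+ cDC, and was not 2-fold apart in any pair.

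Lists of proteases and of genes of their pathways were measured on the same arrays, and only some members are known targets of these serpins. The counts of these lists are to be read beside the shares of all genes. Those shares were 16.0% higher and 14.8% lower for pDC over CD8+ cDC, 15.0% and 14.3% for pDC over CD11b+ cDC, and 9.84% and 10.3% for CD8+ cDC over CD11b+ cDC. Of 11 granzyme and perforin genes 1 was above background, Gzma, at 337.9 in pDC, 336.4 in CD8+ cDC and 695.3 in CD11b+ cDC. It was called lower in pDC (log2 difference -1.04) and in CD8+ cDC (-1.05) than in CD11b+ cDC. Gzmb, encoding the target of Serpinb9, and Prf1, encoding perforin, lay at background on all 3 arrays. Of 10 measured neutrophil and mast cell proteases 3 were above background, Elane, Prtn3 and Ctsg, and 0 were 2-fold apart in any pair (medians -0.03, -0.58 and -0.38 for pDC over CD8+ cDC, pDC over CD11b+ cDC and CD8+ cDC over CD11b+ cDC). Ctsg, a target of Serpinb1a and Serpinb6a, gave 169.6, 136.1 and 254.0.

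Of 12 measured lysosomal protease genes 7 were higher in pDC than in CD8+ cDC and 0 lower (median 1.60), against 16.0% and 14.8% of all genes. Against CD11b+ cDC, 3 were higher and 1 lower in pDC (0.22), where 15.0% and 14.3% of all genes were. CD8+ cDC had 0 higher and 4 lower than CD11b+ cDC (-0.67), against 9.84% and 10.3%. Ctsl, encoding a cysteine protease of antigen processing, gave 463795 in pDC, 1719 in CD8+ cDC and 2257 in CD11b+ cDC. Ctsd gave 28108.5, 3567 and 17055, and Napsa, the member lower in pDC than in CD11b+ cDC, gave 71042, 72399 and 182998.

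Of the convertases and membrane serine proteases, 8 were above background on any array. In pDC over CD8+ cDC 1 of 8 was higher and 2 lower (median 0.21), against 16.0% and 14.8% of all genes. In pDC over CD11b+ cDC 0 of 7 were higher and 2 lower (0.01), against 15.0% and 14.3%. In CD8+ cDC over CD11b+ cDC 1 of 8 was higher and 1 lower (-0.01), against 9.84% and 10.3%. Furin, the target of Serpinb8, gave 1044 in pDC, 862.8 in CD8+ cDC and 857.8 in CD11b+ cDC and was not 2-fold apart in any pair. Its relative Pcsk5 gave 121.3, 3269 and 120.4, and so was highest on the array where Serpinb8 was highest. St14, encoding matriptase, gave 2852, 1091 and 13300.3, and Dpp4, a dipeptidyl peptidase, gave 20921, 63399 and 64725.

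Genes of plasminogen activation and coagulation bear on Serpinb2, Serpini1 and Serpinc1. Among the plasminogen genes 2 of 6 measured were higher in pDC than in CD8+ cDC and 0 lower (median 0.52), 1 of 6 was higher and 3 lower in pDC than in CD11b+ cDC (-0.68), and 0 of 7 were higher and 5 lower in CD8+ cDC than in CD11b+ cDC (-1.98). Of all genes 16.0% and 14.8%, 15.0% and 14.3%, and 9.84% and 10.3% were higher and lower in these pairs. Plau, encoding urokinase, the target of Serpinb2, lay at background on all 3 arrays, and Plat, encoding the target of Serpini1, gave 106.0, 111.2 and 101.4. Plaur, the urokinase receptor gene, gave 8472 in pDC, 92.1 in CD8+ cDC and 389.8 in CD11b+ cDC, and the matrix protease gene Mmp9 gave 65.0, 65.0 and 8833.

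Of the coagulation genes 3 of 8 were higher in pDC than in CD8+ cDC and 1 lower (median 0.42), and 2 of 9 were higher and 3 lower in pDC than in CD11b+ cDC (-0.10). CD8+ cDC had 1 of 8 higher than CD11b+ cDC and 4 lower (-1.06). The shares of all genes in these pairs were the same 16.0% and 14.8%, 15.0% and 14.3%, and 9.84% and 10.3%. F2, the thrombin gene, lay at background throughout, and F10 gave 117.6 in pDC, 95.3 in CD8+ cDC and 332.9 in CD11b+ cDC. F5, encoding a cofactor of thrombin formation, gave 1606 in pDC, 84.2 in CD8+ cDC and 96.1 in CD11b+ cDC, and so, like Serpinc1, was highest in pDC. Procr, encoding the protein C receptor, gave 36621, 135903 and 37944. Of the 7 measured complement protease genes 2 were above background, C2 and Cfb, both lower in pDC and in CD8+ cDC than in CD11b+ cDC (medians -1.84 and -1.55), and 0 were called in pDC over CD8+ cDC (-0.29). C1ra and C1s1, encoding targets of Serping1, lay at background as Serping1 did (49.9 in pDC, 48.9 in CD8+ cDC and 51.4 in CD11b+ cDC).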

How the data were processed

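Probe set intensities were deposited by the authors on a linear scale, made with MAS5 per the submitters' processing notes, with no version given and no detection calls. Per the labels' protocols, 20 ng of pooled RNA was amplified in 2 rounds before labelling. How the 3 arrays were scaled to be alike is not given in the sources. Probe sets were named by the platform annotation, and all 40 Serpin genes were found by gene number in the RefSeq table of GRCm38.p6. Each gene was taken at its brightest single-gene probe set. Of 125 entries in 9 gene lists 116 were matched. Every Serpin gene above background is named. Of the lists, some but not all members with large differences are named (up to 4 a direction), as are some known targets of a serpin. The members, lists and motifs were chosen with earlier results of these data known. Differences were computed as log2 of signals with a floor at background, in Python 3.11.15 with pandas 2.3.3 and numpy 2.4.6. The calls were also run on simulated data with little noise and planted differences far beyond 2-fold in bright genes. Such a run checks the code and not the accuracy of the calls in these data. With single arrays there is no residual spread and hence no test, and the number of arrays limits the precision. Alternatives were the scaling, the background level, no floor, the probe set rule and 3-fold for a call.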

Additional observations from a re-analysis of the deposited data

How the results depend on the processing

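The calls of Serpinb6b, Serpinb9, Serpinb8, Serpinb2, Serpinb1a, Serpinf1 and Serpinc1 at 2-fold were the same under each alternative run. Of 183 values of single genes under an alternative, called or not, 36 moved by more than the standard deviation between probe sets. Differences that were called kept their sign. Smaller ones did not always, as in CD8+ cDC over CD11b+ cDC with the spike-in scaling for Serpinh1 (0.68 to -0.32) and Serpinb2 (0.57 to -0.42). Background at the 99th percentile (412) left 7 Serpin genes above it in CD8+ cDC and 7 in CD11b+ cDC, against 13 each at the 95th, and 0 in place of 1 led 4-fold in CD11b+ cDC. Leaving out probe sets with x_at, s_at or a_at names left 32 genes, with 6 in place of 10 above background in pDC and 1 in place of 2 leading 4-fold there, since Serpinh1 has no other probe set. Scaling on 18 spike-in probe sets moved the median of all genes to 0.65 for pDC over CD8+ cDC, -0.30 for pDC over CD11b+ cDC and -0.95 for CD8+ cDC over CD11b+ cDC, and that of the Serpin genes in the last pair to -0.32 from 0.57. With that scaling Serpinb1b was no longer called in pDC over CD8+ cDC (-0.65) and 3 members led 4-fold in CD8+ cDC, Serpinf1 having lost its lead, as it did with probe sets averaged. With no floor 6 genes were lower in pDC than in CD11b+ cDC, Serpinb1b being added. Averaging probe sets brought Serpinf1 to -1.21 in pDC over CD8+ cDC and 1.14 in pDC over CD11b+ cDC. No paired analysis was possible because each cell type has 1 array. Signals near 111 limit what can be said of Serpina12, Serpinb3a and the low arrays of Serpinc1.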

Other observations

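Inhibitors of proteases outside the Serpin family were read from the same arrays. Of 9 measured members 3 were higher and 2 lower in pDC than in CD8+ cDC (median log2 difference -0.00). In pDC over CD11b+ cDC 3 of 8 were higher and 2 lower (0.08), and in CD8+ cDC over CD11b+ cDC 1 of 9 was higher and 3 lower (0.01). Of all genes 30.8%, 29.3% and 20.1% were called in either direction in these pairs. Spint1, a Kunitz-type inhibitor of membrane serine proteases, lay at background in pDC (99.7) and gave 19073 in CD8+ cDC and 20703 in CD11b+ cDC. Timp2, an inhibitor of matrix metalloproteinases, gave 44053 in pDC, 285.2 in CD8+ cDC and 1116 in CD11b+ cDC. Slpi, an inhibitor of neutrophil elastase, gave 29782, 2781 and 5865. Cst3, encoding the cysteine protease inhibitor cystatin C, gave 105412 in pDC, 600908 in CD8+ cDC and 135596 in CD11b+ cDC, highest on the array where Serpinb6b and Serpinb9 were highest. The related Cst7 gave 359.2, 110.7 and 1398.

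A further 3 probe sets are listed for several Serpin genes each and were used in no comparison. All 3 were below 111 on every array.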
